A study of Mus musculus with 14 samples.

Results

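The aldehyde dehydrogenase genes described here are Aldh1a1, Aldh1a7, Aldh1b1, Aldh1l1, Aldh2, Aldh3a2, Aldh4a1, Aldh7a1, Aldh8a1 and Aldh9a1. They were found by gene name or current symbol among the non-control probes of a whole-genome mouse array, and they make up 10 of its 36093 genes and 11 of its 41174 probes. Livers came from male C57BL/6 mice aged 1 year. Of these, 4 ate a high-calorie form of the AIN-93G diet, with 60% of its calories from fat, to which 0.04% resveratrol, a plant polyphenol, had been added. Another 5 ate the high-calorie diet without resveratrol and 5 ate the standard AIN-93G diet. These are called resveratrol, high-calorie and standard-diet mice. Resveratrol was given only on the high-calorie background, so its effect on the standard diet was not measured. Each array set the Cy3-labelled RNA of a single animal against a Cy5-labelled pool of 5 standard-diet livers, and a value is the log2 of that ratio. Because no array swapped the dyes, a ratio away from 0 can also come from the dyes, and only differences between diets are read. The labels call the animals replicates, and the p-values set differences between diets against the spread of these 14 livers within their diets.

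Aldehyde dehydrogenases oxidise aldehydes to carboxylic acids with NAD or NADP as the electron acceptor. The liver holds many of them, because aldehydes arise there from ethanol, from retinol, from the breakdown of amino acids and choline, and from fatty alcohols and the peroxidation of lipids. Members differ in their compartment and in the aldehyde they take. Aldh1a1 is cytosolic and turns retinaldehyde into retinoic acid, and Aldh1a7 is its close mouse paralog. Aldh2 and Aldh1b1 are mitochondrial enzymes of acetaldehyde, and Aldh3a2 is the membrane-bound fatty aldehyde dehydrogenase that is deficient in human Sjögren-Larsson syndrome. The others serve fixed steps of metabolism, Aldh4a1 in proline breakdown, Aldh7a1 in lysine breakdown, Aldh8a1 in tryptophan breakdown, Aldh9a1 in carnitine synthesis and Aldh1l1 in the oxidation of formyltetrahydrofolate.

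The windows around the transcription starts of 4 members are shown. Aldh1a1 and Aldh1a7 are paralogs that had similar differences between the diets. By root mean square difference over the 14 arrays, each gene centred on its mean, Aldh1a7 was nearer to Aldh1b1 (0.22) than to Aldh1a1 (0.27). The Aldh1b1 window, not shown, held CCAAT but not ATGCAAAT, and whether the windows bear on the differences was not tested. Aldh3a2 had the largest difference of the 10 in high-calorie against standard-diet mice. Aldh8a1 differed by 0.02, or by 0.35 with median centring of the arrays in place of loess. The windows run from 250 bases before to 50 bases after a start, 5′ to 3′ on the strand of the gene, and come from RefSeq, build GRCm38.p6. A window was found for 8 of the 10 members, all except Aldh2 and Aldh7a1, and Aldh1a1 had windows at separate starts, of which the downstream window is shown. For Aldh1a1 (chr19:20601718-20602017, plus strand) and Aldh1a7 (chr19:20727507-20727806, minus strand) capitals mark the runs of at least 12 bases that both share. For Aldh3a2 (chr11:61267137-61267436, minus strand) and Aldh8a1 (chr10:21377050-21377349, plus strand) capitals mark the motif matches described after them.
Aldh1a1: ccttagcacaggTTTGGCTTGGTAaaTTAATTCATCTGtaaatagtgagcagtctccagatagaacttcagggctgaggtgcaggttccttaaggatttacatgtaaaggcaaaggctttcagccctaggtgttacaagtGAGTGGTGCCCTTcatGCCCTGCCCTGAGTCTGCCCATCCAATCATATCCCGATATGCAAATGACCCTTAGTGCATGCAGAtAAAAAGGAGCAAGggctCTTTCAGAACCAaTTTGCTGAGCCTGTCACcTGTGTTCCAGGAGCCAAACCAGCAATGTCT
Aldh1a7: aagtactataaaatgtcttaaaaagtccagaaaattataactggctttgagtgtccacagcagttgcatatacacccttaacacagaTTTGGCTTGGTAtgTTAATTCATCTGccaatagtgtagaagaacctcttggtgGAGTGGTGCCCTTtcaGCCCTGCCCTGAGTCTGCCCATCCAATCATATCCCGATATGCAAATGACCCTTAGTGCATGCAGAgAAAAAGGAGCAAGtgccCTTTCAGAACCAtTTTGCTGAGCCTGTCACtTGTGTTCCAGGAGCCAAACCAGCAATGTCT
Aldh3a2: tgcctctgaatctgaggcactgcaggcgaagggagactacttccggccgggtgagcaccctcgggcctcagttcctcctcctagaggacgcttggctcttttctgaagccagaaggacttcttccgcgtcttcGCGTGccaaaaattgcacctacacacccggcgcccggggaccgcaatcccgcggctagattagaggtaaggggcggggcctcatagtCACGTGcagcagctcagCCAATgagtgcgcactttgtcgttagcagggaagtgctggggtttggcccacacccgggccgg
Aldh8a1: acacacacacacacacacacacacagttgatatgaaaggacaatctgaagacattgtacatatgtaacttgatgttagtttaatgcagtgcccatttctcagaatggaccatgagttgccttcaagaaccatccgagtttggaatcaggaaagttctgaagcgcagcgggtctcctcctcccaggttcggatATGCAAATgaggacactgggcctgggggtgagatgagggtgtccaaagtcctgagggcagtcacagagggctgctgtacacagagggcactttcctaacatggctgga
In an alignment of the windows of both paralogs, 233 of 322 columns were identical (72.4%), and 144 of 151 columns over the last 150 bases of the Aldh1a1 window (95.4%). The Aldh1a1 window was 49.5% to 51.9% identical to those of the other members. The paralogs shared 8 runs with 174 bases in all, and the longest, of 65 bases, holds a CCAAT box (CCAAT) and an octamer (ATGCAAAT). The octamer begins at position -56 relative to the start in both and at -58 in Aldh8a1, and 1.74% of all 32851 windows in the table hold it on either strand. The Aldh3a2 window holds GCGTG, the core of the site of the aryl hydrocarbon receptor, the palindromic E-box CACGTG and CCAAT, none of them overlapping another. These occur on either strand in 32.4%, 7.15% and 37.4% of all windows. Among the 9 windows of members, 7 held CCAAT, 3 GCGTG, 3 the octamer, 1 CACGTG, 1 TATAAA and 1 TGACNNNGC, the core of the antioxidant response element, while a direct repeat of AGGTCA spaced by 1 base was in none of them and in 0.0396% of all windows. TATAAA and TGACNNNGC were in 13.6% and 12.4% of all windows. These matches describe the letters of the windows and do not show that a factor binds.

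All 11 probes were well above background in Cy3 on all 14 arrays and none was saturated. Over all probes, the share above background was 81.9% to 92.4% on resveratrol, 83.5% to 91.8% on high-calorie and 77.8% to 88.2% on standard-diet arrays, and the median net Cy3 signal was 65.6 to 99.7, 57.4 to 113.7 and 48.5 to 85.3 intensity units in that order. Resveratrol replicate 3 stood apart: its ratios over all genes correlated with those of the other resveratrol arrays at a mean r of 0.48, against 0.63 to 0.66 for each of these, while the arrays of high-calorie mice correlated at 0.78 to 0.85 and those of standard-diet mice at 0.60 to 0.75. For Aldh3a2 and Aldh8a1, where it lay far from the other resveratrol mice, the difference from high-calorie mice is also given without it. Defining hepatocyte markers such as Alb, Apoa1 and Ttr were above background on every array.

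Mice on the high-calorie diet had more mRNA of 6 of the 10 members than standard-diet mice. These were Aldh3a2, Aldh1a7, Aldh1a1, Aldh1b1, Aldh9a1 and Aldh4a1, with differences of 3.51-fold down to 1.22-fold. Aldh9a1 passed with its brighter probe but not with its dimmer one. No member fell, and 4 members did not pass. For these same 6 the high-calorie and standard-diet mice did not overlap on any array, as held for 10.3% of all genes. Addition of resveratrol to the high-calorie diet lowered 1 member past the threshold, Aldh1b1. None of the 10 passed between resveratrol and standard-diet mice. A gene passed at a limma adjusted p under 0.05, taken over all 32673 genes tested in a comparison, and all 10 members were among them. Against standard-diet mice, 9.44% of all genes passed in high-calorie mice, 5.37% as higher. In resveratrol against high-calorie mice 5.39% of all genes passed, 2.23% as lower, so that 1 of 10 members is near the share of all genes. In resveratrol against standard-diet mice 0.214% passed, and 3 of the 10 members had an unadjusted limma p under 0.05, as did 10.6% of all genes. In 2 members, Aldh1a1 and Aldh1a7, resveratrol and standard-diet mice did not overlap, as held for 2.94% of all genes. The median log2 difference of the 10 members was 0.33 in high-calorie against standard-diet mice, -0.23 in resveratrol against high-calorie mice and 0.09 in resveratrol against standard-diet mice, and that of all genes was -0.0021, -0.0068 and 0.00045. The comparisons share arrays, so their values are set side by side and not correlated. In whole liver, fewer cells of a type and less RNA per cell cannot be told apart.

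**Figure D1:**
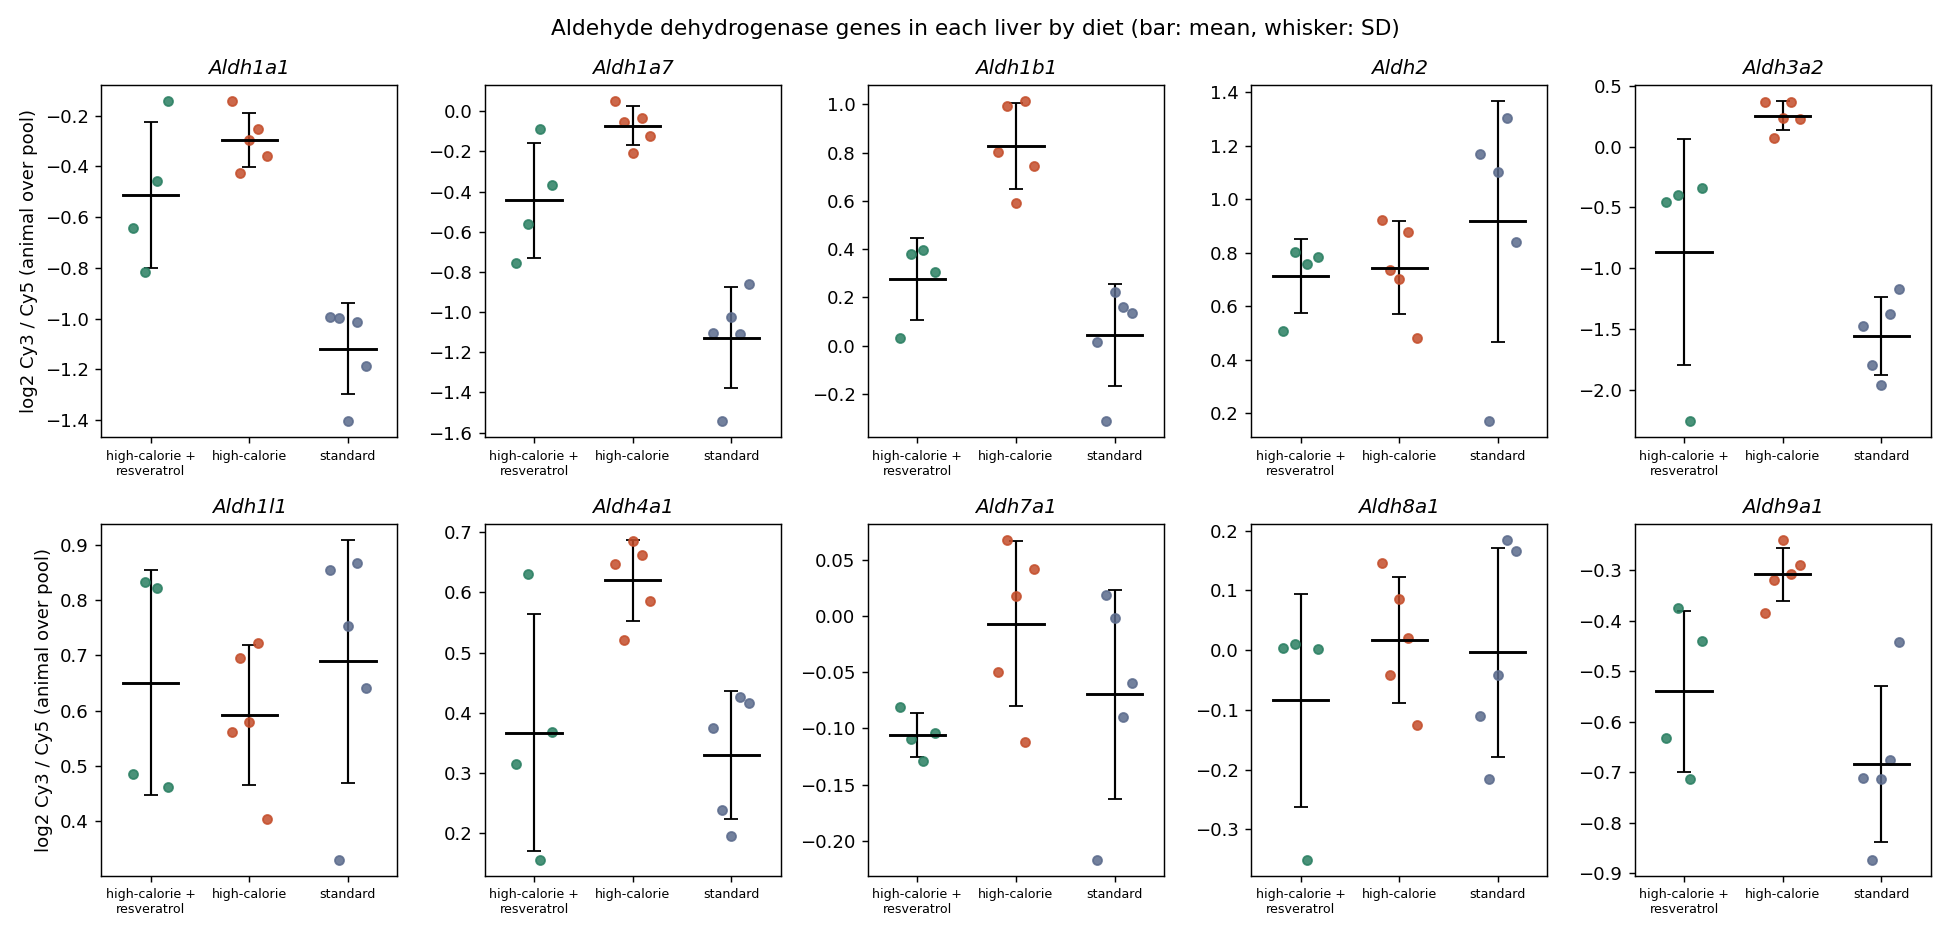
Each panel plots the log2 ratio of Cy3 (animal) to Cy5 (pool) of 1 member on the vertical axis, with its own scale, for 4 resveratrol, 5 high-calorie and 5 standard-diet mice. Points are single livers, the bar is the mean and the whisker the SD, and Aldh3a2 in resveratrol replicate 3, at -2.26, lies far below the other 3 resveratrol mice.

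Of the Aldh1a pair on chromosome 19, Aldh1a7 had log2 ratios of -0.76, -0.56, -0.089 and -0.37 in resveratrol mice, against 0.052, -0.052, -0.21, -0.035 and -0.12 in high-calorie mice and -1.11, -1.54, -1.02, -1.11 and -0.86 in standard-diet mice. Every high-calorie and every resveratrol mouse lay above every standard-diet mouse, and resveratrol replicate 3 lay within the range of the high-calorie mice. Aldh1a7 rose by 1.05 ± 0.13 (SE) on the log2 scale, 2.08-fold, in high-calorie against standard-diet mice (limma adjusted p = 0.000273). Resveratrol against high-calorie mice differed by -0.37 ± 0.13 (limma adjusted p = 0.119), and resveratrol against standard-diet mice by 0.68 ± 0.13 (limma adjusted p = 0.0569). Neither of these passed, although the 95% intervals of -0.66 to -0.09 and 0.40 to 0.97 do not include 0. Without standard-diet replicate 2, without standard-diet replicate 5 or without resveratrol replicate 1, the difference of resveratrol from standard-diet mice did pass (limma adjusted p = 0.0379, 0.0293 and 0.0326).

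For Aldh1a1, the retinaldehyde dehydrogenase itself, the log2 ratios were -0.64, -0.81, -0.46 and -0.14 in resveratrol mice, against -0.14, -0.43, -0.30, -0.25 and -0.36 in high-calorie mice and -0.994, -0.997, -1.40, -1.01 and -1.19 in standard-diet mice. As for its paralog, the standard-diet mice were lowest with no overlap. Resveratrol replicates 1, 2 and 3 lay below every high-calorie mouse. Resveratrol replicate 4, at -0.1416, lay just above the highest high-calorie mouse, at -0.1419. Aldh1a1 rose by 0.82 ± 0.11 (SE), 1.77-fold, in high-calorie against standard-diet mice (limma adjusted p = 0.000682). It differed by -0.22 ± 0.12 in resveratrol against high-calorie mice (limma adjusted p = 0.302) and by 0.60 ± 0.12 in resveratrol against standard-diet mice (limma adjusted p = 0.0571), and neither passed. The last difference passed without standard-diet replicate 2 (limma adjusted p = 0.0405) and without resveratrol replicate 2 (0.0350). The sequences of the array's probes were not used here, so how far the probes of these paralogs tell their RNAs apart was not tested.

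Of the mitochondrial enzymes of acetaldehyde, Aldh1b1 had log2 ratios of 0.030, 0.38, 0.40 and 0.31 in resveratrol mice, against 0.80, 0.99, 0.59, 1.01 and 0.74 in high-calorie mice and 0.015, -0.31, 0.22, 0.16 and 0.14 in standard-diet mice. All high-calorie mice lay above all mice of both other diets, and the resveratrol and standard-diet mice overlapped. Aldh1b1 rose by 0.78 ± 0.11 (SE), 1.72-fold, in high-calorie against standard-diet mice (limma adjusted p = 0.000782). It fell by 0.55 on the log2 scale in resveratrol against high-calorie mice, to 0.683 times their level, with an SE of 0.11 (limma adjusted p = 0.0177). Resveratrol and standard-diet mice differed by 0.23 ± 0.11 (limma adjusted p = 0.493, 95% interval -0.01 to 0.48). The fall with resveratrol did not pass in 8 of 29 alternative settings, with values of -0.66 to -0.31 on the log2 ratio scale over all settings. Among them were median centring (limma adjusted p = 0.0700) and omission of resveratrol replicate 1 (-0.47, limma adjusted p = 0.0725).

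Aldh2, the main mitochondrial acetaldehyde dehydrogenase, had log2 ratios of 0.51, 0.80, 0.76 and 0.79 in resveratrol mice, against 0.92, 0.74, 0.70, 0.88 and 0.48 in high-calorie mice and 1.17, 0.17, 1.10, 1.30 and 0.84 in standard-diet mice. The diets overlapped, and the standard-diet mice included both the lowest and the highest liver of all. High-calorie against standard-diet mice differed by -0.17 with a 95% interval of -0.54 to 0.19 (limma adjusted p = 0.535). Resveratrol against high-calorie mice differed by -0.03, with an interval of -0.42 to 0.35, and resveratrol against standard-diet mice by -0.20, with an interval of -0.59 to 0.18. Under median centring the first of these differences was 0.10, so its sign depended on the scaling.

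The fatty aldehyde dehydrogenase Aldh3a2 had log2 ratios of -0.46, -0.40, -2.26 and -0.34 in resveratrol mice, against 0.37, 0.074, 0.24, 0.36 and 0.23 in high-calorie mice and -1.48, -1.80, -1.96, -1.38 and -1.17 in standard-diet mice. Resveratrol replicate 3 was the lowest of all 14 livers, and the other 3 resveratrol mice lay between the high-calorie and the standard-diet mice without overlap. Aldh3a2 rose by 1.81 ± 0.30 (SE), 3.51-fold, in high-calorie against standard-diet mice (limma adjusted p = 0.00231), the largest difference among the members. Resveratrol against high-calorie mice differed by -1.12 ± 0.31 and did not pass (limma adjusted p = 0.0524), although the diets did not overlap, as held for 13% of all genes. Resveratrol against standard-diet mice differed by 0.69 ± 0.31 (limma adjusted p = 0.461). Without resveratrol replicate 3 both differences passed, at -0.65 against high-calorie mice (limma adjusted p = 0.0320) and 1.16 against standard-diet mice (limma adjusted p = 0.00255), and the rise in high-calorie mice was again 1.81 (limma adjusted p = 3.27e-06).

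**Figure D2:**
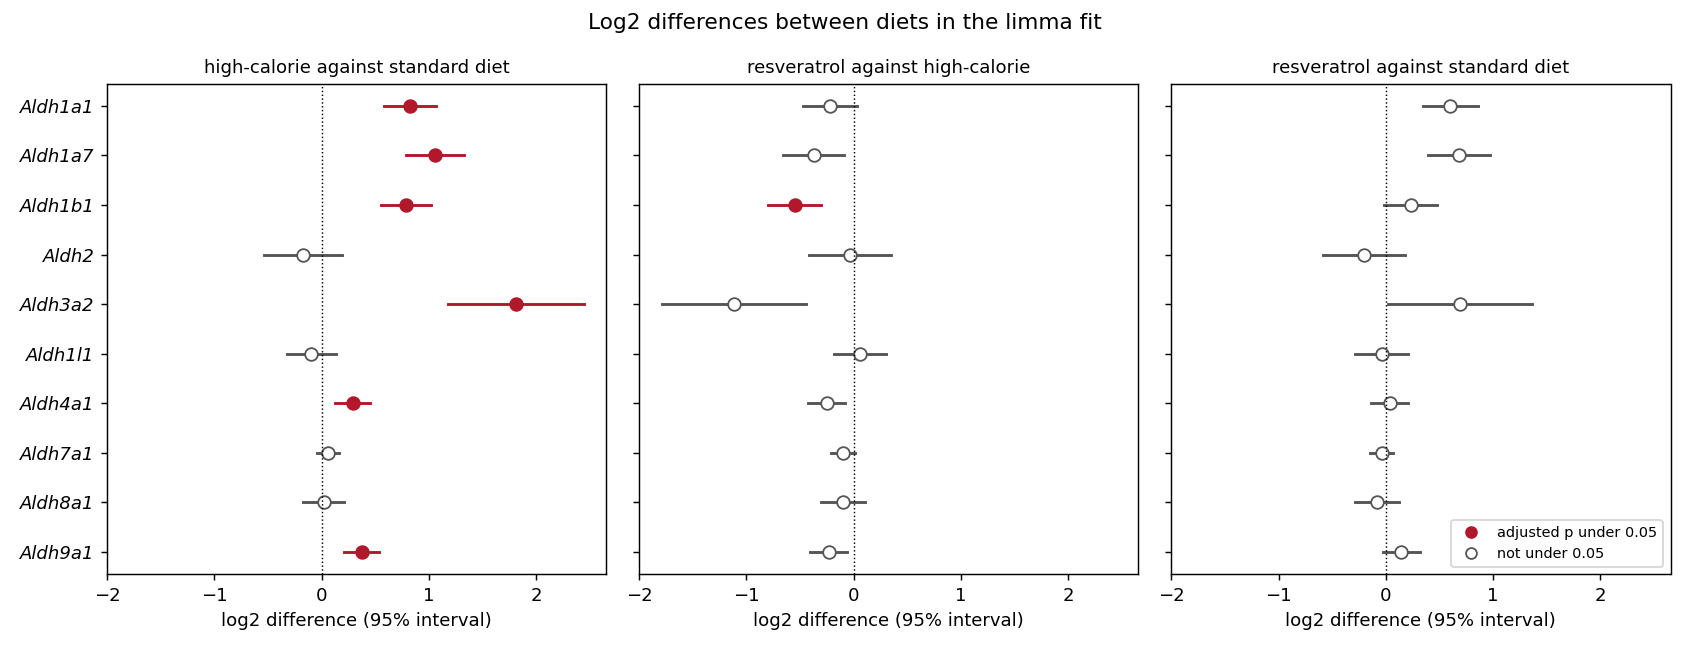
The horizontal axes give log2 differences with 95% intervals in the limma fit for the 10 members, with a panel for each pair of diets, and filled red points mark a limma adjusted p under 0.05. In high-calorie against standard-diet mice 6 members are marked, in resveratrol against high-calorie mice Aldh1b1 alone, and in resveratrol against standard-diet mice none.

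Aldh4a1, which oxidises pyrroline carboxylate in proline breakdown, had log2 ratios of 0.31, 0.63, 0.16 and 0.37 in resveratrol mice, against 0.65, 0.52, 0.69, 0.66 and 0.59 in high-calorie mice and 0.38, 0.24, 0.20, 0.43 and 0.42 in standard-diet mice. The high-calorie mice lay above all standard-diet mice, and resveratrol replicate 2 lay among the high-calorie mice. Aldh4a1 rose by 0.29 ± 0.08 (SE), 1.22-fold, in high-calorie against standard-diet mice (limma adjusted p = 0.0301). This call was lost in 14 of 30 alternative settings, among them the Cy3 channel alone (limma adjusted p = 0.325), array brightness as a covariate (0.0931) and 6 of the omissions of a single liver, in which the adjusted p reached 0.0783. Resveratrol against high-calorie mice differed by -0.25 ± 0.08 (limma adjusted p = 0.0809), which passed only without resveratrol replicate 2 (-0.34, limma adjusted p = 0.0208) among the alternatives tried. Resveratrol against standard-diet mice differed by 0.04, with an interval of -0.13 to 0.21.

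Aldh9a1, the dehydrogenase of trimethylaminobutyraldehyde in carnitine synthesis, was the only member with more than 1 probe, and its probes disagreed. The brighter probe, A_52_P265877, which represents the gene here, gave log2 ratios of -0.63, -0.37, -0.71 and -0.44 in resveratrol mice, against -0.38, -0.32, -0.24, -0.31 and -0.29 in high-calorie mice and -0.71, -0.87, -0.71, -0.68 and -0.44 in standard-diet mice. With it, all high-calorie mice lay above all standard-diet mice, and Aldh9a1 rose by 0.38 ± 0.08 (SE), 1.30-fold (limma adjusted p = 0.00907). This call was lost in 5 of 30 alternative settings, which were the Cy3 channel alone (limma adjusted p = 0.144), the deposited scores (0.303), array brightness as a covariate (0.0588) and the fits within day 1 (0.0874) and day 2 (0.413). The dimmer probe, A_51_P106211, gave means of 0.02 ± 0.03 in resveratrol mice (SD, n = 4), 0.06 ± 0.10 in high-calorie mice (SD, n = 5) and 0.03 ± 0.12 in standard-diet mice (SD, n = 5). Its diets overlapped, and high-calorie against standard-diet mice differed by 0.02 ± 0.06 (SE, limma adjusted p = 0.834). The mean log2 intensity over both channels was 6.88 for this probe and 9.53 for the brighter one, so its ratios lay nearer to background. Between resveratrol and high-calorie mice the brighter probe differed by -0.23 ± 0.08 (limma adjusted p = 0.109) and the dimmer by -0.04, and neither passed. Why the probes differ was not tested.

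**Figure D3:**
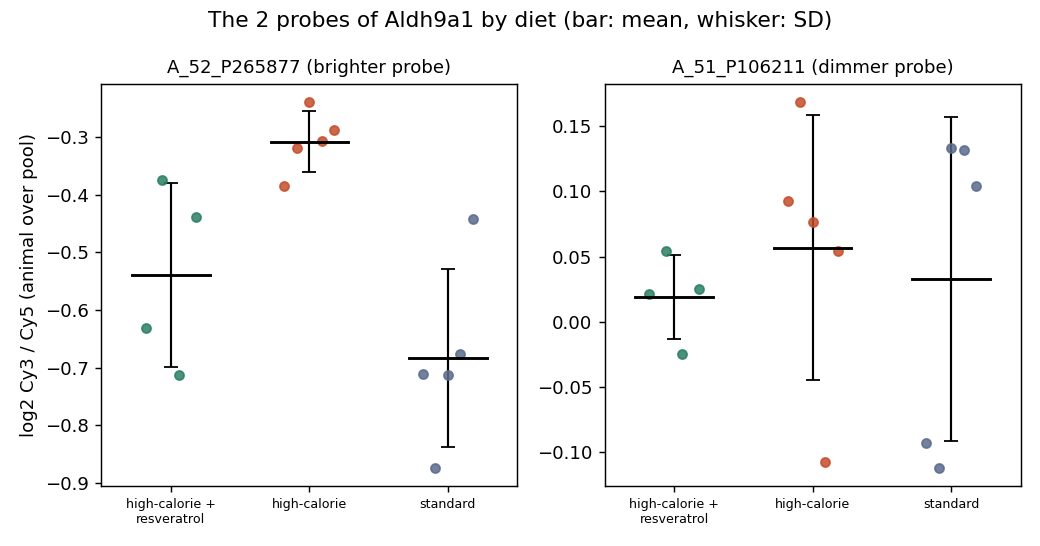
The vertical axes give the log2 ratio of Cy3 to Cy5 for the brighter and the dimmer probe of Aldh9a1 in resveratrol, high-calorie and standard-diet mice, each panel with its own scale. Points are livers, bars are means and whiskers SDs, and the high-calorie mice lie above the standard-diet mice with the brighter probe only.

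The remaining members, Aldh1l1, Aldh7a1 and Aldh8a1, passed in no comparison. Aldh1l1, the formyltetrahydrofolate dehydrogenase, ranged from 0.46 to 0.83 in resveratrol, 0.40 to 0.72 in high-calorie and 0.33 to 0.87 in standard-diet mice. Its difference in high-calorie against standard-diet mice was -0.10 with a 95% interval of -0.33 to 0.13 (limma adjusted p = 0.591), and median centring turned it to 0.25. Aldh7a1, which acts on the semialdehyde of lysine breakdown, ranged from -0.13 to -0.08 in resveratrol, -0.11 to 0.07 in high-calorie and -0.22 to 0.02 in standard-diet mice. It differed by 0.06 in high-calorie against standard-diet mice, with an interval of -0.04 to 0.17, the narrowest among the members, and by 0.18 with median centring, which did not pass (limma adjusted p = 0.0880). Aldh8a1, which oxidises aminomuconic semialdehyde in tryptophan breakdown, had log2 ratios of 0.0028, 0.010, -0.35 and 0.0025 in resveratrol mice, against 0.15, -0.041, 0.087, 0.021 and -0.12 in high-calorie mice and -0.11, -0.22, -0.041, 0.19 and 0.17 in standard-diet mice. Apart from resveratrol replicate 3, the diets overlapped, and high-calorie against standard-diet mice differed by 0.02 with an interval of -0.17 to 0.21 (limma adjusted p = 0.906). The difference of Aldh8a1 was 0.35 with median centring (limma adjusted p = 0.117) and 0.21 with the Cy3 channel alone (limma adjusted p = 0.381), neither of which passed. Aldh1l1, Aldh7a1 and Aldh8a1 differed by 0.06, -0.10 and -0.10 in resveratrol against high-calorie mice.

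The members also differed in how much mice on the same diet varied. The SD within diets was 0.53 for Aldh3a2, 0.30 for Aldh2 and 0.22 for Aldh1a7 on the log2 scale, and 0.07 for Aldh7a1, the least variable, against a median of 0.09 over all genes tested. For Aldh3a2 the SD was 0.93 in resveratrol mice (n = 4), against 0.12 in high-calorie mice (n = 5) and 0.32 in standard-diet mice (n = 5). The SDs of 0.93 and 0.53 rest largely on resveratrol replicate 3, at -2.26, as the other resveratrol mice lay at -0.46, -0.40 and -0.34. Neither SD was computed without that liver. For Aldh2 the standard-diet mice varied most, with an SD of 0.45 (n = 5), against 0.14 in resveratrol mice (n = 4) and 0.17 in high-calorie mice (n = 5). With each gene centred on its own mean, the most alike pair of members over the 14 arrays was Aldh4a1 and Aldh9a1, with a root mean square difference of 0.10 in log2 ratio. This measure does not scale genes to their spread, so genes that vary little lie close by it. Among matched genes outside the family, the 5 nearest to Aldh1a7 by the same measure included Sdc1 (0.15), Tmem120a (0.19) and Antxr2 (0.20). Sdc1 encodes the heparan sulfate proteoglycan syndecan. It was higher by 0.89 on the log2 scale in high-calorie against standard-diet mice, differed by -0.32 in resveratrol against high-calorie mice and by 0.58 in resveratrol against standard-diet mice, beside 1.05, -0.37 and 0.68 for Aldh1a7. These genes were picked for this likeness, which rests on diets and livers they share.

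Of 11 other aldehyde dehydrogenases, 10 were tested, and Aldh3b2 was not analysed here. Only Aldh6a1, the methylmalonate semialdehyde dehydrogenase of valine breakdown, passed. It rose by 0.67 ± 0.18 (SE), 1.59-fold, in high-calorie against standard-diet mice (limma adjusted p = 0.0323), a call lost in 15 of 30 alternative settings. Among the 9 that did not pass, the differences ran from -0.40 for Aldh16a1 (limma adjusted p = 0.0527) to 0.18 for Aldh5a1. No other aldehyde dehydrogenase passed in either comparison with resveratrol mice. The median difference of these 10 was 0.04 in high-calorie against standard-diet mice.

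Among 14 alcohol dehydrogenases and other enzymes that make or remove aldehydes, 4 rose and 1 fell in high-calorie against standard-diet mice, with a median of 0.12. Aox1, an aldehyde oxidase, rose by 0.77 ± 0.18 (SE, limma adjusted p = 0.0184), and the aldehyde reductase Akr1a1 by 0.50 ± 0.12 (limma adjusted p = 0.0202). Carbonyl reductases also rose, Cbr3 by 0.36 and Cbr1 by 0.37 (limma adjusted p = 0.00554 and 0.0289), and Akr1b8 fell by 0.21 (limma adjusted p = 0.0134). In resveratrol against high-calorie mice 3 of the 14 fell, Aox1 by 0.85, Cbr1 by 0.42 and Cbr3 by 0.36 (limma adjusted p = 0.0227, 0.0301 and 0.0150). Alcohol dehydrogenases Adh4 and Adh5 rose in that comparison, by 0.46 and 0.26 (limma adjusted p = 0.0478 and 0.0318), and none of the 14 passed in resveratrol against standard-diet mice. All 5 calls between resveratrol and high-calorie mice were lost with median centring, and likewise with the Cy3 channel alone. Of 29 alternative settings, Adh4 kept its call in 8, Adh5 and Cbr1 in 14 each, Aox1 in 18 and Cbr3 in 24. Adh4 lost it when any resveratrol or high-calorie liver was left out, or standard-diet replicate 1 or 3. Adh5 and Cbr1 lost it without resveratrol replicate 1 or 3 or high-calorie replicate 1, 2, 3 or 5, and Aox1 without resveratrol replicate 1 or high-calorie replicate 1 or 5. The rise of Cbr1 in high-calorie against standard-diet mice was kept in 18 of 30 settings, and the calls of the other 4 genes in 23 to 26.

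Of 23 genes of retinoid handling, 22 were tested and Dhrs9 was not analysed here. In high-calorie against standard-diet mice 3 rose and none fell, with a median of 0.16. These were Rdh16, a retinol dehydrogenase, by 1.33 ± 0.27 (SE, limma adjusted p = 0.00836), the retinoic acid receptor Rarb by 0.57 ± 0.09 (limma adjusted p = 0.00136) and Lrat, which esterifies retinol for storage, by 0.36 ± 0.05 (limma adjusted p = 0.00149). The same 3 genes fell in resveratrol against high-calorie mice, Rdh16 by 1.10, Rarb by 0.42 and Lrat by 0.34 (limma adjusted p = 0.0376, 0.0185 and 0.00830), and those falls did not pass with median centring or the Cy3 channel alone. The fall of Rdh16 was kept in 12 of 29 alternative settings, and was lost without resveratrol replicate 1 or 3, any one high-calorie liver or standard-diet replicate 4. Rarb kept its fall in 19, losing it without resveratrol replicate 1 or 3 or high-calorie replicate 5, and Lrat in 25. No retinoid gene passed in resveratrol against standard-diet mice. Rdh16 averaged -0.25 ± 0.76 in resveratrol mice (SD, n = 4), 0.86 ± 0.07 in high-calorie mice (SD, n = 5) and -0.47 ± 0.43 in standard-diet mice (SD, n = 5).

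Partner enzymes, which act in the routes that Aldh4a1, Aldh7a1, Aldh8a1, Aldh9a1, Aldh1l1 and Aldh3a2 serve, were tested for 30 of 32 genes, and Haao and Acmsd were not analysed here. In high-calorie against standard-diet mice 4 rose, 1 fell and 25 did not pass, with a median of 0.08. Oat, which feeds ornithine into the pool that Aldh4a1 draws on, rose by 1.47 ± 0.21 (SE), 2.77-fold (limma adjusted p = 0.00111). Bhmt, which uses betaine to remethylate homocysteine, rose by 0.78 ± 0.18 (limma adjusted p = 0.0149). Bbox1, the last enzyme of carnitine synthesis, rose by 0.66 ± 0.19 (limma adjusted p = 0.0484), and Aass, which opens lysine breakdown, by 0.32 ± 0.09 (limma adjusted p = 0.0330). The call of Bbox1 was kept in only 7 of 30 alternative settings, and single livers whose omission kept it were standard-diet replicate 5 and resveratrol replicate 3. Aass kept its call in 15 of 30, losing it without high-calorie replicate 1, 2, 3 or 4 or standard-diet replicate 2 or 3. Oat kept its call in 29 of 30 and Bhmt in 26. Prodh2 of the proline list fell by 0.28 (limma adjusted p = 0.0218), but its difference was 0.020 under median centring and the call was kept in 21 of 30 settings. None of the 30 passed in either comparison with resveratrol mice. In the lysine, tryptophan and folate routes, Aldh7a1, Aldh8a1 and Aldh1l1 did not pass, nor did 14 of their 15 tested partners. As 9.44% of all genes passed in high-calorie against standard-diet mice, that count is near the share of all genes. For proline, Aldh4a1 and Oat passed as higher and Prodh2 as lower, with 4 partners tested. For carnitine Aldh9a1 and Bbox1 passed, with 3 partners tested, and for choline Bhmt, with 4 tested. For fatty aldehydes Aldh3a2 passed and none of its 4 partners did. Routes of 3 or 4 partners are too small to set against the 9.44% of all genes.

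**Figure D4:**
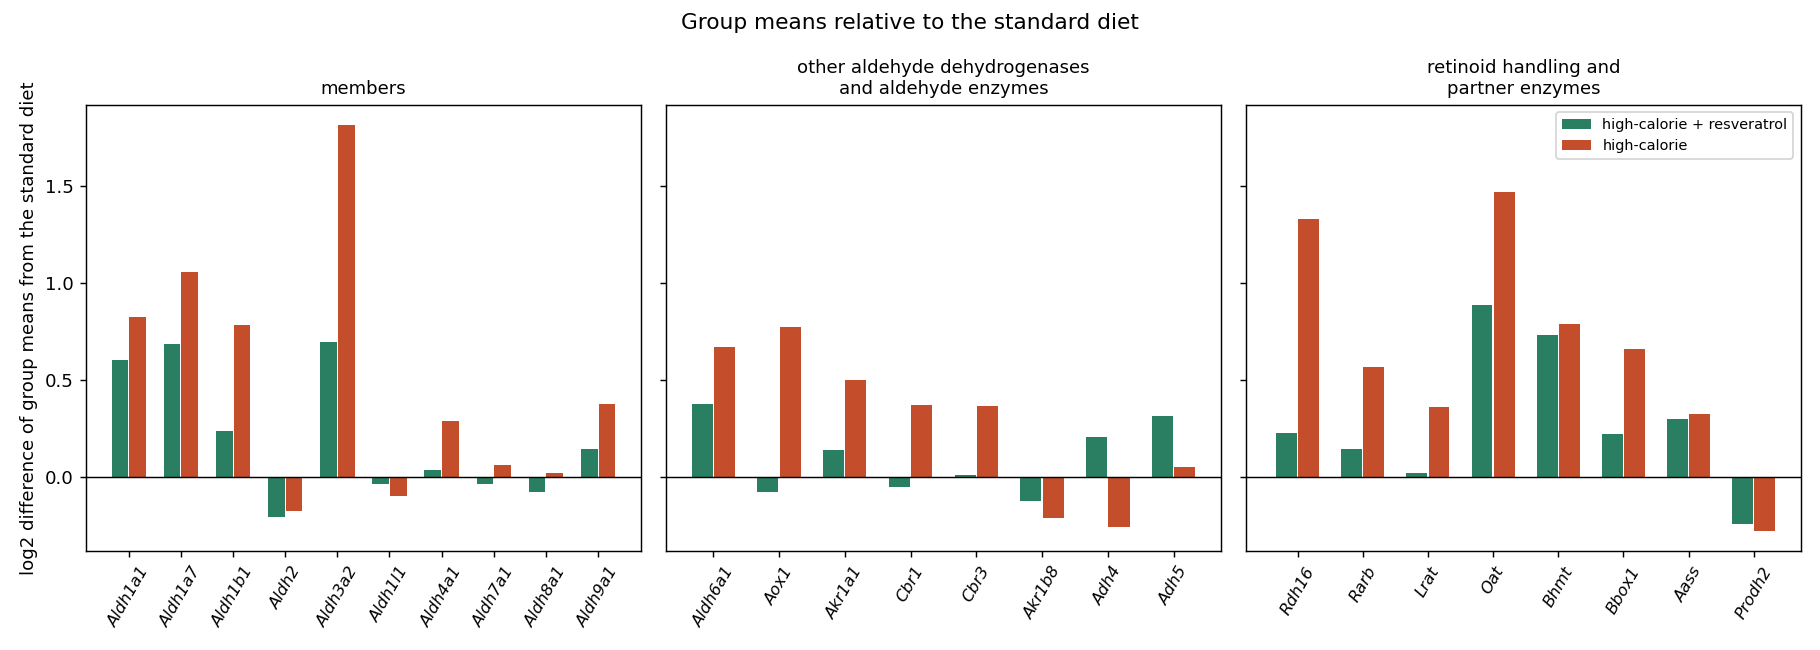
Bars give the log2 difference of the group mean from the standard-diet mean for the 10 members, for other enzymes of aldehydes that passed in any comparison, and for retinoid and partner genes that passed, in 4 resveratrol and 5 high-calorie mice. Aldh3a2 reaches 1.81 in high-calorie and 0.69 in resveratrol mice, and Rdh16 reaches 1.33 in high-calorie and 0.23 in resveratrol mice.

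Markers of liver cell types moved between the same diets as the members, and their part in the results was not tested. In high-calorie against standard-diet mice 3 of 7 tested hepatocyte markers fell, Ahsg, Apoa1 and Hnf4a, and the mean over the 7 was 0.74 to 1.09 in resveratrol, 0.35 to 0.64 in high-calorie and 0.77 to 0.93 in standard-diet mice. Of 8 markers of pericentral hepatocytes 4 rose, Oat, Lect2, Glul and Slc1a2, and Cyp1a2 fell, with means of -0.18 to 0.25, 0.05 to 0.32 and -0.21 to -0.10 in the same order of diets. Oat is also in the partner list. None of 8 periportal markers passed in any comparison. Of 8 tested stellate cell markers 5 rose and Acta2 fell in high-calorie against standard-diet mice, and 4 fell in resveratrol against high-calorie mice, with means of -0.14 to 0.13 in resveratrol, 0.17 to 0.31 in high-calorie and -0.12 to 0.13 in standard-diet mice. Lrat stands in both the stellate and the retinoid list. The mean over 9 Kupffer cell markers was 0.04 in resveratrol replicate 3 and 0.22 in replicate 4, against -0.78 and -0.84 in replicates 1 and 2, -0.56 to -0.28 in high-calorie mice and -0.85 to -0.58 in standard-diet mice. Of 6 adipocyte markers Cfd was higher in both groups on the high-calorie diet, by 2.57 ± 0.33 (SE) in resveratrol and 2.52 ± 0.31 in high-calorie against standard-diet mice (limma adjusted p = 0.00557 and 0.000339). Retn fell by 0.20 in high-calorie against standard-diet mice and rose by 0.23 in resveratrol against high-calorie mice, while Adipoq, Lep, Plin1 and Lipe passed in no comparison. The mean over the 6, Cfd included, was 0.06 to 0.38 in resveratrol, -0.10 to 0.22 in high-calorie and -0.38 to -0.21 in standard-diet mice. By this mean the standard-diet mice lay below the others without overlap, but it was not computed without Cfd. The median difference of the 6 genes was -0.09 in high-calorie and 0.02 in resveratrol against standard-diet mice. Spp1, alone among 6 cholangiocyte markers, rose by 0.76 in high-calorie against standard-diet mice, and Pecam1, alone among 6 tested endothelial markers, by 0.22. Csf1r, alone among the Kupffer cell markers, rose by 0.28 in resveratrol against high-calorie mice, where Ahsg also rose, by 0.71, and Lect2 fell by 0.60. Among all cell type markers tested, Axin2, Pecam1, Krt19 and Epcam were not above background on every array.

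The day on which Feature Extraction processed an image divided the arrays into all 4 resveratrol, 2 high-calorie and 3 standard-diet livers on day 1, and 3 high-calorie and 2 standard-diet livers on day 2. Within day 1 the differences of high-calorie from standard-diet mice were 0.94 for Aldh1a1, 1.09 for Aldh1a7, 0.78 for Aldh1b1 and 1.97 for Aldh3a2, and within day 2 they were 0.73, 1.07, 0.86 and 1.66. Within day 1 the first 3 of these genes passed (limma adjusted p = 0.0386, 0.0181 and 0.0196) and Aldh3a2 did not (0.0724). Within day 2 none of the 10 members passed, and 6 had an unadjusted limma p under 0.05, as did 3518 of all 32673 genes. For Aldh4a1 and Aldh9a1 the differences were 0.32 and 0.35 within day 1 and 0.27 and 0.38 within day 2. In resveratrol against high-calorie mice within day 1, Aldh1b1 differed by -0.63 (limma adjusted p = 0.0867) and Aldh3a2 by -1.23, and in resveratrol against standard-diet mice Aldh1a1 differed by 0.62 and Aldh1a7 by 0.63. Day 2 held no resveratrol liver. Slide numbers were divided here at their largest gap into 2 series. Within the series that held all standard-diet livers and 3 high-calorie livers, the differences of high-calorie mice were 0.76 for Aldh1a1, 1.00 for Aldh1a7, 0.73 for Aldh1b1, 1.74 for Aldh3a2 and 0.40 for Aldh9a1, and all 5 passed. Within the other, with 3 resveratrol and 2 high-calorie livers, Aldh1b1 differed by -0.66 (limma adjusted p = 0.262).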

How the data were processed

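Liver RNA of 14 mice was measured on two-colour Agilent arrays, 1 animal in Cy3 against a standard-diet pool in Cy5. Per the labels' protocols, RNA was purified on Qiagen columns and amplified linearly. Feature Extraction 7.5.1 wrote the scanner files that the authors deposited, per the file headers, with the intensity of spots and their background in each channel and a processed intensity beside it. The deposited value table is in score units, each column with an SD of 1. How the scores were made and their log base are not given in the sources used here, and they served only as an alternative. Their column medians ran from -0.0497 to 0.00234, and they followed log2 processed Cy3 with r of 0.983 to 0.985.

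Signals were corrected here with normexp (offset 50) and normalised by loess within arrays with 2256 control spots at weight 0, after which these and 576 outlier-flagged spots were left out. Probes were named through the RefSeq gene table of GRCm38.p6, which matched 20853 probes to 15939 genes, and 20321 probes kept the names in the files. The 1 probe per gene was the brightest. Genes well above background on at least 4 arrays were fitted with limma 3.58.1 in R 4.3.3 (data.table, version 1.17.8), all 3 diets in a single model, with Benjamini-Hochberg adjustment within each comparison. Promoter windows were aligned with Biopython 1.88 in Python 3.11.15, and figures were drawn with matplotlib 3.10.9. The fit was tested on simulated log2 values. For arrays, their number limits the precision.

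The members and gene lists were chosen with earlier results of these data known. All 10 members and their probes were named. Of other lists, up to 4 passing genes with the smallest adjusted p per comparison were eligible, or up to 2 as values. Cbr1 in the high-calorie comparison and Adh4 in the resveratrol comparison fell outside this number and were named after their values were seen, as was Bbox1. Alternatives covered background correction, normalisation, the Cy3 channel alone, the scores, dim-probe filters, several probes per gene, batches, brightness, a replicate block and the omission of each liver.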

Additional observations from a re-analysis of the deposited data

Results flagged for a closer look

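In 3 of the 30 combinations of member and diet, 1 liver lay far from the others of its diet, by a gap test on the extreme value (Dixon's test), and chance alone flags about 1 in 20 such groups. Aldh3a2 in resveratrol replicate 3 had a log2 ratio of -2.26, and the nearest resveratrol mouse had -0.46. Aldh8a1 in the same liver was -0.35, and the nearest was 0.0025. Aldh2 in resveratrol replicate 1 was 0.51, and the nearest was 0.76. Groups of 4 livers are small for such a test. Without resveratrol replicate 3, Aldh8a1 differed by -0.01 in resveratrol against high-calorie mice (limma adjusted p = 0.960), beside -0.10 with it.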

How the results depend on the processing

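In high-calorie against standard-diet mice 6 members passed. Within day 1 and day 2, 7 and 6 members had an unadjusted limma p under 0.05, as did 6632 and 3518 of all 32673 genes. The count of passing members was 3 within day 1, 0 within day 2, and 5 to 6 when single livers were left out. It was 4 with the Cy3 channel alone, the deposited scores or brightness as a covariate, each of which lost Aldh4a1 and Aldh9a1. Aldh1a1, Aldh1a7 and Aldh1b1 each kept their call in 29 of 30 alternatives, Aldh3a2 in 28, Aldh9a1 in 25 and Aldh4a1 in 16. Without background correction Aldh1b1 rose by 0.41 and Aldh9a1 by 0.19, and Aldh1b1 in resveratrol against high-calorie mice was at -0.31. With median centring Aldh1a1 rose by 1.26, Aldh4a1 by 0.54 and Aldh9a1 by 0.57. With the Cy3 channel alone Aldh4a1 was at 0.18, and with the mean of both probes Aldh9a1 rose by 0.20 (limma adjusted p = 0.0482). In resveratrol against high-calorie mice the count of 1 became 2 without background correction or with only genes above background on all arrays. It was 0 with the scanner's processed signals, median centring, the Cy3 channel alone, the deposited scores, within day 1 or within slide series 1, and 0 to 2 when single livers were left out. In these settings with 0 calls, 3 to 6 members had an unadjusted limma p under 0.05. So did 3265 to 6184 of all genes, of which 31431 were tested with the scores and 32673 otherwise. In resveratrol against standard-diet mice the count of 0 became 0 to 2 when single livers were left out. Over the members' single values, 276 of 300, 276 of 290 and 274 of 280 stayed on their side of the threshold in the order of the comparisons above, and no called value changed sign, while 11, 9 and 17 values that passed in neither setting did. Outside the family, Prodh2, called at -0.28 in high-calorie against standard-diet mice, was at 0.020 under median centring.

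Genes called over the whole array moved more. Against 3083 in high-calorie against standard-diet mice there were 877 with the Cy3 channel alone, 416 with the scores, 871 with brightness as a covariate, 1874 with the slide series as a block, 819 within day 1, 55 within day 2, 837 within slide series 2 and 1379 to 5993 when single livers were left out, lowest without high-calorie replicate 5 and highest without standard-diet replicate 5. Against 1760 in resveratrol against high-calorie mice there were 2695 without background correction, 698 with processed signals, 120 with median centring, 82 with Cy3 alone, 48 with scores, 445 with the day as a block, 672 with the slide series as a block, 52 within day 1, 0 within slide series 1 (3987 at an unadjusted limma p under 0.05) and 352 to 2571 with single livers left out. Against 70 in resveratrol against standard-diet mice there were 32 without background correction and 32 with processed signals, 17 with median centring, 6 with Cy3 alone, 4 with scores, 10 with the slide series as a block, 31 with brightness and 23 to 214 with single livers left out. Higher genes made up 56.9% of calls in high-calorie against standard-diet mice, but 79% with median centring, 78.1% with Cy3 alone and 80.3% with scores. In resveratrol against high-calorie mice they made up 58.7%, but 25.8%, 24.4% and 33.3% under the same settings. The cause was not tested.

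With the replicate number as a block, 5, 0 and 0 members passed in the order of the comparisons above, and 2882, 409 and 48 genes in all. The numbers were not taken to pair the animals, since the labels do not state that they do. Deviations of same-numbered arrays correlated at -0.19 to 0.30, and 7 of 14 arrays were closest to their own number. How many would be so by chance was not computed, so these values do not decide whether the numbers pair animals. Limits are the 4 to 5 livers per diet, a single probe for 9 of the 10 members, and signal over background. Aldh1b1 had a net Cy3 signal as low as 82.6 units, and the dimmer Aldh9a1 probe had the lowest mean intensity of the members' probes.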
